A study of Mus musculus with 2 samples.

Results

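The genes described are 8 genes of the S100 family, taken by name from the expression tables of 2 libraries: S100a8, S100a9, S100a11, S100a6, S100a4, S100a10, S100a1 and S100a13. All 8 were found among the 35522 features that both tables list, and all 8 had an RPKM of at least 0.25 in both libraries, as did 9698 features in all. RPKM divides the reads of a gene by the length of its exons and by the depth of its library, so it sets genes of unequal length on 1 scale. The cells were bone marrow neutrophils of young Balb/C mice, sorted as CD11b-positive, Ly6G-high and Ly6C-low or negative cells. For 3 days they were kept in RPMI-1640 medium in which both cultures received GM-CSF (10 ng/ml), which sustains myeloid cells. The PBS-treated culture was given the buffer alone. The ELV-treated culture was given 20 μg/ml of exosomes, small extracellular vesicles, from the medium of spheres grown out of the Balb/C colon carcinoma line CT26 without serum, which enriches cancer stem cells. Each treatment has 1 library, whether animals were pooled is not stated, and no spread between replicates or test of the treatment can be given for any value.

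S100 proteins are small calcium-binding proteins with a pair of EF-hand motifs, and most of them work as dimers that bind a target protein when calcium rises. Neutrophils are known for their cytosolic store of calprotectin, the S100A8 and S100A9 heterodimer, which withholds zinc and manganese from microbes and, once released, signals through TLR4. S100A10 and S100A11 pair with annexins at membranes, S100A6 binds the calcyclin-binding protein, S100A4 binds non-muscle myosin IIA, S100A13 takes part in the release of FGF1 and IL-1α, and S100A1 is best known from muscle.

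The 8 genes lie on chromosome 3 in GRCm38, the sequence of the mm10 build that the labels name. In the GENCODE annotation S100a1 (90511034 to 90514392, minus strand) and S100a13 (90514435 to 90524581, plus strand) stand back to back with 42 bases between them. S100a4 (90603771 to 90606045), S100a6 (90612882 to 90624181) and S100a8 (90668978 to 90670035) follow on the plus strand, and S100a9 (90692632 to 90695721) faces S100a8 from the minus strand. S100a11 (93520488 to 93526287) and S100a10 (93555080 to 93564643), both on the plus strand, lie 2.82 megabases beyond S100a9. These intervals cover whole genes, exons and introns together.

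The promoters of S100a8, S100a9, S100a6 and S100a11 are shown because these 4 genes were lower together in the ELV-treated library, and that of S100a4 because it was the member past 2-fold in the other direction. Each sequence is the 150 bases before the RefSeq start on GRCm38.p6, 5′ to 3′ on the strand of the gene. Their positions are chr3:90668921-90669070 (plus) for S100a8, chr3:90695722-90695871 (minus) for S100a9, chr3:90612744-90612893 (plus) for S100a6, chr3:93520346-93520495 (plus) for S100a11 and chr3:90603620-90603769 (plus) for S100a4. The stretches of S100a8, S100a6 and S100a11 run past the GENCODE starts given above, that of S100a8 furthest. Capitals mark the motif matches named after the sequences.
S100a8: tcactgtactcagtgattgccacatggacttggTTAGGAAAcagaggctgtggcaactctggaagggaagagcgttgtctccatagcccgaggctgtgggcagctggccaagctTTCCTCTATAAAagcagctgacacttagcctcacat
S100a9: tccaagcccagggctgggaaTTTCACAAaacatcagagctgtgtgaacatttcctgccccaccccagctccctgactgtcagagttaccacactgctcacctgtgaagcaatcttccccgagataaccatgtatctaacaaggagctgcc
S100a6: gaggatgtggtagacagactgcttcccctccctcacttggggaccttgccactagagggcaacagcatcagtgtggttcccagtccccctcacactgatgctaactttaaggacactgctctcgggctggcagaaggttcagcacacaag
S100a11: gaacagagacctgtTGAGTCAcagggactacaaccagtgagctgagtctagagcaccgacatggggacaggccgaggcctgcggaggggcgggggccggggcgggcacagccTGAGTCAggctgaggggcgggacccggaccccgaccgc
S100a4: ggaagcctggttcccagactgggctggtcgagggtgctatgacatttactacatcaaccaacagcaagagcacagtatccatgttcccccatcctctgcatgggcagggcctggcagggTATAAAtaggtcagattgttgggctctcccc

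RefSeq windows of 150 bases before and 50 bases after the start were found for 7 of the 8 genes and searched on both strands. TATAAA, the letters of the TATA box, was found at -30 to -25 from the start of S100a8 and at -31 to -26 from that of S100a4, where -1 is the last base before the start. In S100a9 the same letters are the first 6 bases after the annotated start and so lie outside the printed stretch. Of 32851 windows of the same length, 8.91% held TATAAA. TTNNGNAA, a short form of the site of C/EBP factors, was found in S100a8 and S100a9 and in 27.8% of all windows. GAGGAA, a core of the PU.1 site, was found before S100a8, where it lies directly beside TATAAA, after the start of S100a4, and in 20.0% of all windows. These 2 matches of S100a8 stand before the RefSeq start but inside the GENCODE interval of the gene. TGANTCA, the AP-1 site, occurred at 2 places before S100a11 and in 5.35% of all windows. No match to these letters was found in the windows of S100a6, S100a1 and S100a13. The RefSeq starts of S100a1 and S100a13 are 104 bases apart on opposite strands, against 42 between the GENCODE intervals, so their windows share sequence. A match describes the letters and was not tested as a binding site.

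The estimated depth was about 66000000 mapped reads for PBS and 79100000 for ELV. The labelled cell type was checked against 21 neutrophil marker genes, all of which were kept and some of which also stand on the cargo list below. Of these, 14 were at least 2-fold lower with ELV and 3 were higher, with a median log2 ratio of -1.78. Of all kept features 5.62% were lower and 31.5% higher. The summed level was 12653 RPKM with PBS and 10105 RPKM with ELV. Most of the ELV sum came from the 3 higher genes, Lcn2 (1626 and 4081 RPKM), Fpr1 (384 and 1473) and Fpr2 (429 and 1582). The surface marker gene Ly6g had 287 and 56.2 RPKM. Of 18 monocyte and macrophage marker genes in the tables, 10 were kept, 6 of them higher and 1 lower, and their summed level was 382 RPKM with PBS and 689 RPKM with ELV. The lower one was Ly6c2, at 184 and 37.1 RPKM, and without it the sums were 198 and 652 RPKM. No marker of this list was at 0 in either library. Csf1r had 58.1 and 153 RPKM and Emr1, a macrophage surface marker gene, had 20.9 and 152 RPKM, whereas C1qa had 0.18 and 1.42 RPKM. B cell markers summed to 110 and 68.0 RPKM, and T and NK cell markers to 59.0 and 8.94 RPKM, of which Cd3d made up 56.4 and 7.02 RPKM. Dendritic cell markers summed to 172 and 119 RPKM, most of it from Cd74 (81.4 and 54.1), H2-Aa (41.9 and 32.1), H2-Ab1 and H2-Eb1. Flt3, Zbtb46, Xcr1, Cd209a, Siglech and Batf3 of that list were each at or under 0.64 RPKM in both libraries. Platelet markers summed to 36.4 and 32.5 RPKM, eosinophil to 10.6 and 5.29, and mast cell and basophil to 2.89 and 3.48 RPKM. Erythroid markers summed to 10.8 and 38.9 RPKM, of which Tfrc, the transferrin receptor gene of many cell types, made up 7.71 and 38.2 RPKM, and without it to 3.07 and 0.705 RPKM. Epithelial markers summed to 2.67 and 6.92 RPKM, of which Ascl2 made up 2.04 and 6.68 RPKM, and without it to 0.63 and 0.235 RPKM. The part of these cells in the S100 levels was not tested.

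The levels of the 8 genes spanned a 39504-fold range in PBS-treated and an 8035-fold range in ELV-treated neutrophils. They fell into a high group, S100a8, S100a9, S100a11 and S100a6, and a low group, S100a4, S100a10, S100a1 and S100a13, with no value between 10.75 and 364.54 RPKM. All 4 members of the high group were at least 2-fold lower in the ELV-treated library. In the low group 1 gene, S100a4, was at least 2-fold higher, and the other 3 stayed within 2-fold.

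**Figure D1:**
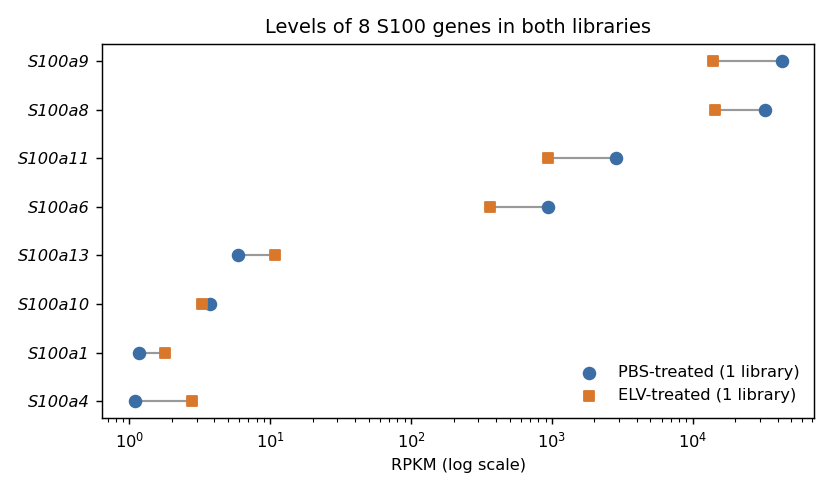
RPKM (log scale) of the 8 S100 genes, 1 point per library, circles for PBS-treated and squares for ELV-treated neutrophils. The 4 high genes have lower values in the ELV-treated library, from 14382 for S100a8 to 364.54 for S100a6, whereas the 4 low genes stay at or under 10.75 RPKM in both libraries.

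Calprotectin transcripts were the most abundant of the PBS-treated library. S100a9 had 43059 RPKM in PBS-treated and 13834 RPKM in ELV-treated neutrophils. S100a8 had 32823 RPKM with PBS and 14382 RPKM with ELV. Both genes were thus high in both libraries and lower in the ELV-treated one, where S100a8 stood above S100a9 and not below it. The log2 ratio of ELV over PBS was -1.64 for S100a9, which is 3.11-fold lower, with a 95% counting interval of -1.64 to -1.63. For S100a8 it was -1.19, or 2.28-fold lower, with an interval of -1.20 to -1.19. These intervals are exact Clopper-Pearson intervals of estimated reads. They cover counting error only and leave out variation between cultures, animals and libraries. In bulk RNA fewer cells of a type and less RNA of a gene per cell cannot be told apart. Between the 2 genes of the heterodimer the change was unequal. S100a9 stood at 1.31 times S100a8 with PBS and at 0.962 times with ELV, a log2 difference of -0.45. A ratio of 2 genes within a library does not depend on how the libraries were scaled to each other.

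S100a9 and S100a8 held ranks 1 and 2 of all features in PBS-treated neutrophils, followed by the ferritin genes Fth1 and Ftl1. In ELV-treated neutrophils they held ranks 3 and 2, behind Lyz2, the lysozyme gene of myeloid cells, which was 14430 RPKM there and 6092 RPKM with PBS. S100a9 stood at 7.07 times Lyz2 in the PBS-treated and at 0.959 times Lyz2 in the ELV-treated library. The 8 genes together held 22.2% of the summed RPKM with PBS and 8.51% with ELV. Nearly all of this was S100a8 and S100a9, which made up 95.2% and 95.5% of the RPKM of the 8 genes. The other 6 genes held 1.06% and 0.380%. Because the transcripts are short, the same genes took a smaller share of the estimated reads, 5.02% with PBS and 1.77% with ELV. The total of estimated reads behind these shares was smaller than the estimated depth.

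S100a11, whose protein binds annexin A1 and annexin A2, was the third highest member. Its level was 2855 RPKM with PBS and 936 RPKM with ELV, or rank 9 among all features of the PBS-treated library and rank 25 in the other. The log2 ratio was -1.61 (counting interval -1.63 to -1.59), or 3.05-fold lower. GENCODE holds 4 processed pseudogenes that match at least 50% of the S100a11 transcript with at least 90% identity. The treatment of reads shared with such copies is not stated, so the level of S100a11 is uncertain to that extent. The single one of these copies listed in the tables, Gm7665, was at 0 in both libraries. S100a6, which encodes calcyclin, had 941 RPKM with PBS and 365 RPKM with ELV. Its log2 ratio was -1.37 (counting interval -1.39 to -1.35), or 2.58-fold lower. Across the high group the ratios to each other moved less than the levels. S100a11 stood at 3.03 times S100a6 with PBS and at 2.57 times with ELV, and S100a9 stood at 15.1 and 14.8 times S100a11. The ratio of S100a8 to S100a11 moved more, from 11.5 with PBS to 15.4 with ELV, a log2 difference of 0.42.

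S100a4, also called metastasin, was low in both libraries. It had 1.09 RPKM with PBS and 2.76 RPKM with ELV, which correspond to about 36 and 109 reads. The log2 ratio was 1.34, or 2.53-fold higher than with PBS, and the counting interval, 0.78 to 1.92, reaches below 2-fold. In GENCODE S100a4 overlaps Gm42674, a gene model on the same strand that shares 60.6% of its transcript at full identity. Reads of that shared stretch cannot be told apart between them, and Gm42674 is not among the features listed. Next to S100a6 the difference in level was large, since S100a6 stood at 863 times S100a4 with PBS and at 132 times with ELV.

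S100a10 encodes p11, the partner of annexin A2 in a membrane complex. It had 3.75 RPKM with PBS and 3.30 RPKM with ELV, about 169 and 179 reads. The log2 ratio was -0.18, and its counting interval of -0.49 to 0.13 includes 0. Under median centring the log2 ratio was -0.71 with an interval of -1.02 to -0.39, and under level-matched centring it was -1.04, so that whether S100a10 differed rests on the scaling. Anxa2, the gene of its partner, was far higher, at 610 RPKM with PBS and 361 RPKM with ELV. Per length, Anxa2 stood at 163 times S100a10 in the PBS-treated and at 109 times in the ELV-treated library.

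S100a13 had 5.94 RPKM with PBS and 10.75 RPKM with ELV, about 280 and 608 reads. Its log2 ratio was 0.86 (counting interval 0.65 to 1.07). S100a1, its back-to-back neighbour, had 1.16 RPKM with PBS and 1.79 RPKM with ELV, about 52 and 96 reads, and a log2 ratio of 0.63 (counting interval 0.12 to 1.14). Both ratios were under 2-fold, and both intervals lay above 0 and reached past 2-fold. S100a13 stood at 5.12 times S100a1 with PBS and at 6.01 times with ELV. Under centring on features of the same level the log2 ratios were -0.0014 for S100a13 and -0.23 for S100a1, so that the direction of these 2 small differences rests on the scaling.

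The calls were read against those of all features. At least 2-fold lower were 4 of 8 S100 genes (50%), against 5.62% of the 9698 kept features. At least 2-fold higher was 1 of 8 (12.5%), against 31.5% of the kept features. Median centring turned the split of all kept features from 3056 higher and 545 lower to 1634 higher and 1282 lower. The background differed with the level. Among 373 features of at least 100 RPKM in both libraries, 10.7% were at least 2-fold lower and the median log2 ratio was -0.03. This group leaves out features under 100 RPKM with ELV, such as Camp (381 and 33.9 RPKM), which holds down its share of lower features. All 4 S100 genes at that level were lower. Among 4506 features with a mean RPKM from 1 to 10, 44.8% were at least 2-fold higher and the median log2 ratio was 0.86. The low group lies there, with S100a4 past 2-fold and with S100a10 at -0.18. The median log2 ratio of the 8 genes was -0.69, and that of all kept features was 0.53. These counts describe the genes and carry no test, since 8 genes of 1 library per treatment are not replicates.

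**Figure D2:**
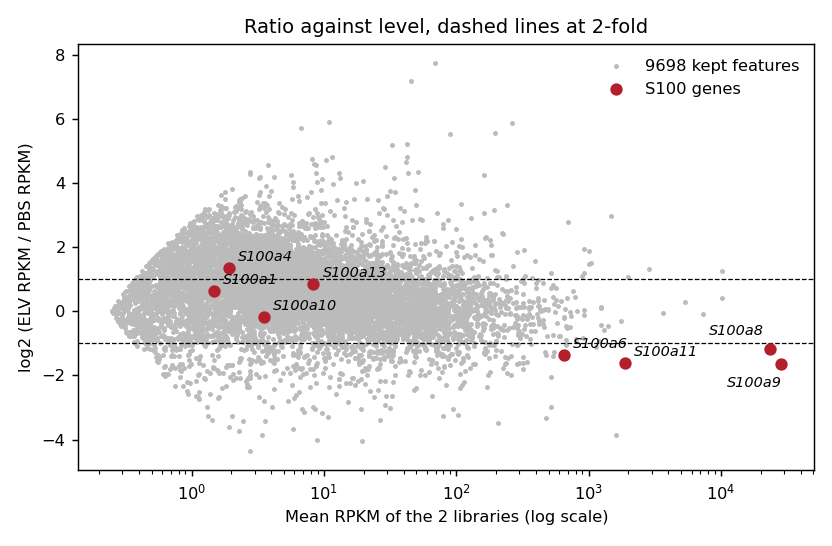
Log2 ratio of ELV over PBS RPKM against the mean RPKM of both libraries (log scale) for 9698 kept features (grey) and the 8 S100 genes (red), with dashed lines at 2-fold. S100a6, S100a11, S100a8 and S100a9 lie under the lower line at the high end of the level axis, from -1.19 to -1.64, and S100a4 lies above the upper line at 1.34.

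All kept features had a median log2 ratio of 0.53, so the ratio of each member was also read under other scalings. S100a8, S100a9, S100a6 and S100a11 were at least 2-fold lower under all 6 alternatives applied to single genes, with log2 ratios from -1.12 to -2.18. Median centring, trimmed mean centring and scaling without the 8 genes lower every ratio, so they could not undo these calls. A pseudocount of 1 hardly moves genes of this level. Rescaling to equal sums and level-matched centring raised S100a8 from -1.19 to -1.14 and to -1.12. Level-matched centring set S100a8, S100a9 and S100a11 against 23 features with a mean of at least 1000 RPKM, themselves among them. S100a4 was above 0 under all 6 alternatives and past 2-fold under 2 of them, with a range of 0.48 to 1.39. S100a10 ranged from -0.14 to -1.04.

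**Figure D3:**
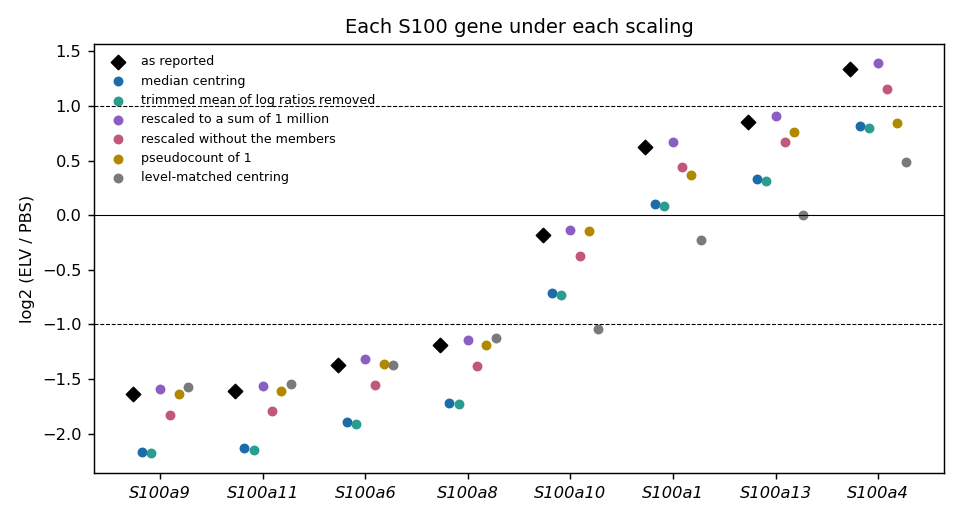
Log2 ratio of ELV over PBS for each S100 gene as reported (black diamonds) and under 6 other scalings or pseudocounts (coloured points), with dashed lines at 2-fold. The 4 genes on the left stay under -1 in every case, whereas S100a1 and S100a13 reach -0.23 and -0.0014 with level-matched centring and S100a4 drops to 0.48.

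The rest of the family was mostly at or near 0. Of 16 further S100 and S100-fused genes in a written list, 8 were at 0 RPKM in both libraries, among them S100a5, S100a16, S100g and S100z. S100a7a alone reached 0.25 RPKM in both. S100a7a, which lies between S100a6 and S100a8, had 8.18 RPKM with PBS and 2.42 RPKM with ELV, a log2 ratio of -1.76 (counting interval -1.97 to -1.55). S100a3 had 0.77 and 0.18 RPKM, and Tchh, a hair follicle gene with a fused S100 domain, had 0.20 and 0.78 RPKM. S100a2 was not on the list and was picked after its values were seen, at 1.30 RPKM with PBS and 0.24 RPKM with ELV, about 27 and 6 reads. GENCODE places S100a2 inside the span of S100a3 on the same strand. Along the chromosome the levels changed abruptly from gene to gene. S100a5, at 0 in both libraries, stands between S100a4 at 1.09 RPKM and S100a6 at 941 RPKM with PBS.

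**Figure D4:**
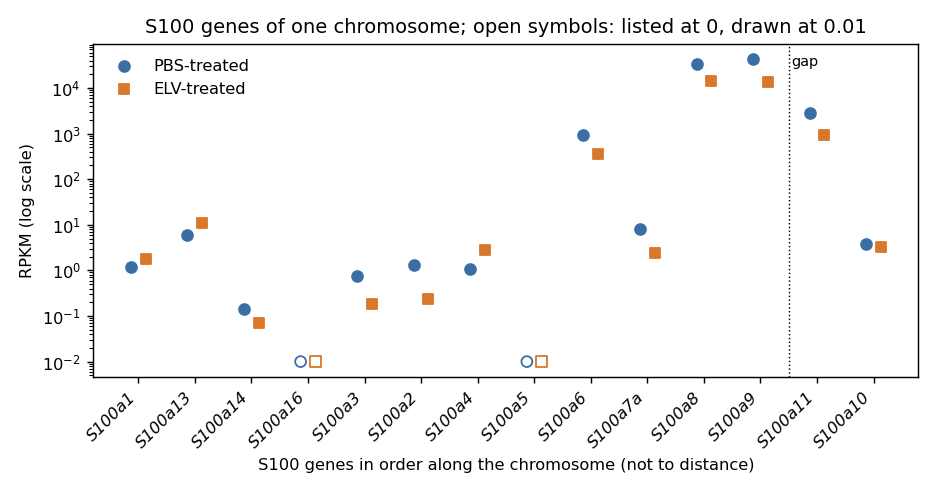
RPKM (log scale) of the S100 genes of chromosome 3 in their order along it, circles for PBS-treated and squares for ELV-treated neutrophils, with open symbols at 0.01 for genes listed at 0. The dotted line marks the gap of 2.82 megabases, and the highest values, S100a8 and S100a9, stand next to each other with S100a7a at 8.18 and 2.42 RPKM just before them.

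Within 100 kb of the 8 genes the tables list 14 genes without an S100 name, of which 5 were kept. Of these 5, 2 were at least 2-fold higher and 0 lower, against 31.5% and 5.62% of all kept features. Among kept features with a mean RPKM from 1 to 10, 44.8% were at least 2-fold higher. With 5 genes these counts do not set the neighbours apart from other features. Ilf2, an RNA-binding protein gene, had 1.74 and 9.26 RPKM (log2 ratio 2.41), and Snapin, a vesicle traffic gene, had 2.83 and 10.5 RPKM (log2 ratio 1.89) with PBS and ELV. Chtop, which lies next to S100a1, had 18.1 and 28.3 RPKM. Ints3 had 4.34 and 6.87 RPKM, and Pglyrp4, a peptidoglycan recognition gene beyond S100a9, had 4.37 and 3.60 RPKM.

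Receptors and surface partners of secreted S100 proteins were listed next. Of 14 kept genes 1 was higher (7.14%, against 31.5% of all kept features) and 4 were lower (28.6%, against 5.62%). Their median log2 ratio of 0.07 turned to -0.46 under median centring. Tlr4, the main receptor of calprotectin, had 34.5 RPKM with PBS and 21.7 RPKM with ELV (log2 ratio -0.67). Ly96, the MD-2 subunit that TLR4 needs, had 34.3 and 42.4 RPKM (log2 ratio 0.31, and below 0 under median centring). Ager, which encodes the receptor RAGE, had 10.4 and 3.99 RPKM (log2 ratio -1.38). Bsg, which encodes basigin, an S100A9 receptor, had 30.2 and 70.7 RPKM (log2 ratio 1.23). Bsg was the 1 higher gene of this list, and under median centring, with Bsg at 0.70, 0 genes were higher and 6 lower. Median centring left 1634 higher and 1282 lower of all 9698 kept features. Plaur, the urokinase receptor gene, had 122 and 32.9 RPKM, and Plau, its ligand gene, had 3.35 and 0.76 RPKM. Cd33, a sialic acid-binding receptor gene, had 340 and 126 RPKM.

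Of 9 kept annexin genes 3 were higher (33.3%, against 31.5% of all kept features) and 2 were lower (22.2%, against 5.62%). Under median centring 1 was higher and 4 were lower, beside 1634 higher and 1282 lower of all 9698 kept features. Anxa1, the gene of an S100A11 partner, had 664 RPKM with PBS and 276 RPKM with ELV (log2 ratio -1.26). Anxa2 had a log2 ratio of -0.76 and Anxa11, the gene of an S100A6 partner, one of -0.90. Anxa3 had 26.7 and 10.5 RPKM (log2 ratio -1.35). The annexin genes at least 2-fold higher were Anxa4, Anxa5 and Anxa9, with log2 ratios of 1.55, 1.31 and 1.32. Anxa6 had 1.98 and 3.79 RPKM (log2 ratio 0.94). The 3 annexin genes above 100 RPKM with PBS, namely Anxa1, Anxa2 and Anxa11, were below 0, of which only Anxa1 was past 2-fold as deposited. The PBS level enters the ratio itself, so grouping by it favours values below 0.

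Of 18 kept intracellular partners 7 were at least 2-fold higher (38.9%, against 31.5% of all kept features) and 1 was lower (5.56%, against 5.62%). Both shares lay near those of all kept features. Their median log2 ratio of 0.50 lay close to the 0.53 of all kept features and was -0.03 under median centring. Cacybp, the gene of the calcyclin-binding protein, had 5.04 RPKM with PBS and 17.7 RPKM with ELV (log2 ratio 1.81), while S100a6 was lower. Myh9, the heavy chain gene of non-muscle myosin IIA, had 474 and 310 RPKM (log2 ratio -0.62), while S100a4 was higher. Ahnak, whose protein joins the S100A10 complex, had 0.27 and 0.82 RPKM (log2 ratio 1.60). Cybb, the oxidase subunit gene to which calprotectin carries arachidonic acid, had 69.7 and 295 RPKM (log2 ratio 2.08). Tuba1b, a tubulin gene, and Ppp5c, a phosphatase gene, both had a log2 ratio of 2.10.

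Among 20 myeloid transcription regulators of S100a8 and S100a9, 3 were at least 2-fold higher (15%, against 31.5% of all kept features). Lower were 4 of them (20%, against 5.62%). Of the C/EBP genes, Cebpa had 44.1 RPKM with PBS and 47.8 RPKM with ELV, Cebpb had 227 and 419 RPKM, and Cebpd had 124 and 103 RPKM. Cebpe, the C/EBP gene of late granulocyte development, had 10.9 and 5.44 RPKM, which is 0.501 times the PBS level and just misses the 2-fold limit. The PU.1 gene, listed under its older symbol Sfpi1, had 310 and 341 RPKM. None of these 5 genes was past 2-fold as deposited. Under median centring Cebpe was past it at -1.52, and the log2 ratios of Cebpa and Sfpi1 (0.12 and 0.14) turned below 0. With that centring 2 genes of the list were higher and 8 lower, beside 1634 and 1282 of all 9698 kept features. Irf7, an interferon regulator, had 22.6 and 136 RPKM (log2 ratio 2.59).

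Of 23 kept genes of other EF-hand calcium-binding proteins, 6 were at least 2-fold higher (26.1%, against 31.5% of all kept features) and 0 lower (against 5.62%), with a median log2 ratio of 0.56 and, under median centring, 0.04. Calu, a calcium-binding gene of the secretory path, had 1.92 RPKM with PBS and 14.6 RPKM with ELV (log2 ratio 2.93). Calm3, 1 of the calmodulin genes, had 44.6 and 102 RPKM. Gca, the grancalcin gene of neutrophils, had 7.96 and 19.3 RPKM.

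Of 24 kept antimicrobial cargo genes 6 were higher (25%, against 31.5% of all kept features) and 10 lower (41.7%, against 5.62%). Their median log2 ratio was -0.63. Under median centring 1 was higher and 13 were lower, with a median of -1.15. Of all 9698 kept features, 1634 were higher and 1282 lower under that centring. Retnlg, Camp, Ngp and Ltf, which encode a resistin-like protein, cathelicidin, a neutrophil granule protein and lactoferrin, had log2 ratios of -3.86, -3.49, -3.34 and -3.25. Chi3l3 and Mmp8 had log2 ratios of -2.81 and -2.06. These genes were further below 0 than any of the 8 S100 genes. In the other direction, Lcn2, the siderophore-binding lipocalin gene, had 1626 RPKM with PBS and 4081 RPKM with ELV (log2 ratio 1.33, and 0.80, under 2-fold, with median centring). The Wfdc21 gene, listed under its older symbol 1100001G20Rik, had 333 and 2633 RPKM (log2 ratio 2.98). Other abundant transcripts of these libraries thus differed in direction from S100a8 and S100a9.

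**Figure D5:**
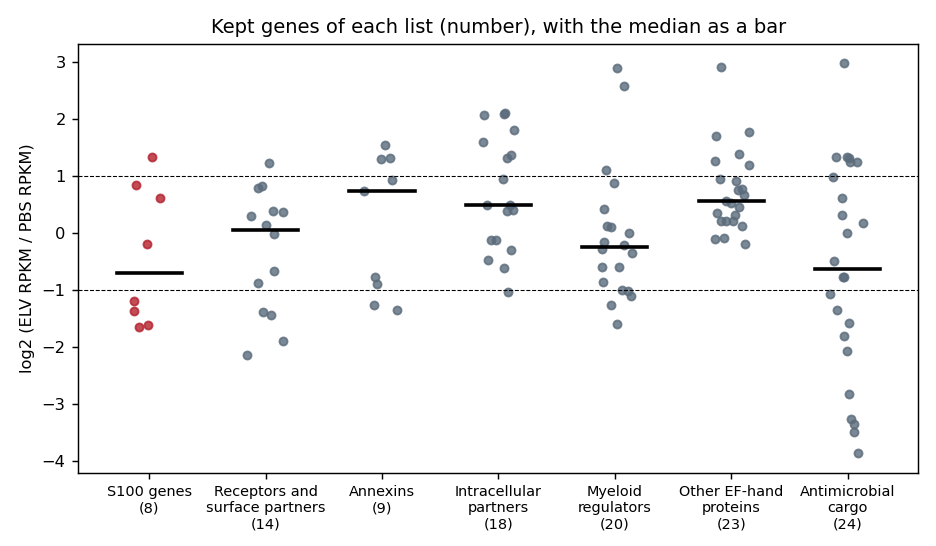
Log2 ratio of ELV over PBS for the kept genes of each list, 1 point per gene, with the number of genes under each name, a bar at the median and dashed lines at 2-fold. The S100 genes (red) have a median of -0.69, the antimicrobial cargo genes -0.63 and the other EF-hand genes 0.56.

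Features with a log2 ratio most like that of S100a8 or S100a9 were sought among 369 other features of at least 100 RPKM in both libraries. Nearest to S100a8 were Sorl1, Nisch and Amica1, with log2 ratios of -1.19, -1.15 and -1.24. Nearest to S100a9 were Clec7a, Zfp36l2 and Fcgr3, with -1.63, -1.65 and -1.62. The likeness rests on 1 ratio between 2 libraries.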

How the data were processed

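Per the labels and the methods of the study, TruSeq mRNA libraries were sequenced and the authors trimmed reads by base quality, used CLC Genomics Workbench and deposited 1 RPKM value per feature and library. The build is mm10. The annotation, the treatment of shared reads and any scaling between libraries are not given in the sources used here. RPKM from 0.01 upward was deposited rounded to 0.01.

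A feature was kept at an RPKM of at least 0.25 in both libraries, and called at a ratio of at least 2 or at most 0.5, the limits that the study gives for its own gene list. Log2 ratios carry no pseudocount, and no test across genes was run. Depth was estimated from features under 0.01 RPKM, where many values stand for a single read of a transcript of known length: 224 of 918 such features gave 1 total with PBS and 270 of 1064 with ELV, within 1%. The length was that of the longest GENCODE M21 transcript, which need not be the exon model of the authors, so read numbers are approximate. The ELV to PBS ratio of depths, read without lengths, was 1.20. Reads entered counting intervals (95%, Clopper-Pearson) and shares of reads only. Older symbols were matched through RefSeq synonyms. Copies were sought by blastn. The scripts were tested on simulated reads. Python 3.11.15, pandas 2.3.3 and scipy 1.17.1 were used.

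The members and gene lists were chosen with earlier results of these data known. Named were all members, kept or detected (at least 0.25 RPKM) other S100 genes, 16 partner and regulator genes whatever their change, list genes of at least 1 RPKM in both libraries that differed at least 4-fold, a member's neighbours within 100 kb at 1 RPKM or more in either library, and the 3 features nearest in ratio to S100a8 and S100a9. A few more list genes are given as examples past 2-fold. Alternatives were 4 scalings, other pseudocounts, filters and limits, and a centring by level chosen after seeing the data.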

Additional observations from a re-analysis of the deposited data

How the results depend on the processing

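Every log2 ratio fell by 0.53 with median centring, by 0.54 with trimmed mean centring and by 0.19 with scaling without the 8 genes. The number of S100 genes at least 2-fold lower stayed at 4 under these, under rescaling to equal sums, under a pseudocount of 1 and under both other filters, and was 5 with level-matched centring, where S100a10 (-1.04) joined. This number was 0 with a required 4-fold difference, and the settings that lower every ratio could not reduce it. The number at least 2-fold higher was 0 with median centring, trimmed mean centring, a pseudocount of 1, level-matched centring and a 4-fold limit, and 3 with a 1.5-fold limit. The background moved as well. Of the 9698 kept features, 545 were at least 2-fold lower and 3056 higher as deposited. These counts were 1282 and 1634 with median centring and 1322 and 1594 with trimmed mean centring. They were 738 and 2464 with scaling without the 8 genes and 1274 and 1424 with level-matched centring. Level-matched centring was chosen after seeing the data.

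The median log2 ratio of the 8 genes was -1.21 with median centring, -1.23 with trimmed mean centring, -0.64 rescaled to equal sums, -0.87 scaled without the 8 genes, -0.67 with a pseudocount of 1, -0.68 with no filter and a pseudocount of 0.25, and -1.08 with level-matched centring. The share of the 8 genes was 5.02% of estimated reads in place of 22.2% of RPKM with PBS and 1.77% in place of 8.51% with ELV, and without S100a8 and S100a9 it was 1.06% and 0.380% of RPKM. The smaller share of reads follows from the short transcripts. No paired analysis was possible because each group holds 1 library and the result comes from no test. Leaving out a library was not possible for the same reason. Depth limits S100a4 and S100a1, which rest on 36 to 109 estimated reads per library.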
